A study of Mus musculus with 6 samples.

Results

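The Gimap genes encode the GTPases of immunity-associated proteins, a family of small guanine nucleotide-binding proteins. The family examined here held 8 mouse genes, Gimap1 and Gimap3 to Gimap9, among 32019 annotated features of the array. Genes were taken by symbol in the platform annotation, with the row of each gene chosen by the highest mean over the 6 arrays; each of the 8 had 1 row, so this choice by level decided nothing. The samples were macrophage fractions of epididymal fat from C57BL/6J males. For 16 weeks, from the age of 6 weeks to 22 weeks, the animals ate a normal chow diet (NCD) or a high-fat diet of 60% fat (HFD). After collagenase digestion, stromal vascular cells that bound an antibody to the surface antigen encoded by Adgre1 were recovered with magnetic beads. Each diet had 3 arrays, written NCD1 to NCD3 and HFD1 to HFD3. An NCD array held RNA from the cells of 20 pooled mice and an HFD array from those of 10, so the spread is between pools and not between mice.

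Gimap proteins bind GTP through a domain shared with plant disease-resistance proteins, and several are anchored to intracellular membranes. They are known above all for keeping lymphocytes alive: loss of Gimap5 in rats and mice depletes T cells, and Gimap1 is needed for mature T and B cells. Some members are also expressed in endothelial cells, which line blood vessels. In mice the genes lie side by side on chromosome 6, in the order Gimap8, Gimap9, Gimap4, Gimap6, Gimap7, Gimap1, Gimap5 and Gimap3.

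Values are log2 expression, and the diet difference is log2 HFD minus NCD with its standard error (SE) from limma, a linear model fitted to all 32019 features with 3 arrays per diet. A gene was called at a Benjamini-Hochberg adjusted p below 0.05. Some counts at an unadjusted p below 0.05 are also given. The share of all features at that cutoff was not counted, so those counts alone are not results about the genes. Array levels of different genes are not on a common scale, so each gene is compared only with itself and with the background level of 6.23, set by antigenomic probe sets, designed to match no mouse sequence. Column medians over the transcript clusters lay close together, and 47.5% of features had a mean below background. The macrophage label was checked on 9 measured identity genes, all above background: the mean level of the list was 13.57 to 14.28 in NCD pools and 14.26 to 14.42 in HFD pools. Of these genes Fcgr1 (1.43, adjusted p = 0.0154 by limma) and Cd68 (1.20, 0.0270) were called higher in HFD and Mertk (−0.49, 0.0385) lower. NCD3, the highest pool of the endothelial list and of 4 Gimap genes (Gimap4, Gimap5, Gimap6 and Gimap8), was the lowest of the macrophage list, at a deviation of −0.62 from the list's mean over pools; the part of this in the Gimap differences was not tested. The gene of the selected antigen, Adgre1, was at 16.08, 15.93 and 15.05 in NCD1 to NCD3 and at 16.54, 16.55 and 16.70 in HFD1 to HFD3. All 16 genes of a strict endothelial list were above background as well.

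All 8 Gimap genes had a lower mean in HFD than in NCD, and 2 of them, Gimap6 and Gimap1, fell beyond the threshold. Of all features 7.63% were called in either direction and 2.79% were called lower. The median difference over the 8 genes was −0.95, against 0.01 over all features. In 5 of the 8 genes (Gimap1, Gimap4, Gimap5, Gimap6 and Gimap8) every NCD pool was above every HFD pool, which held for 12.8% of all features. The family was chosen for study with earlier results of these data known, so these counts are not independent evidence of a direction. In bulk RNA, fewer cells of a type and less RNA per cell cannot be told apart.

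**Figure D1:**
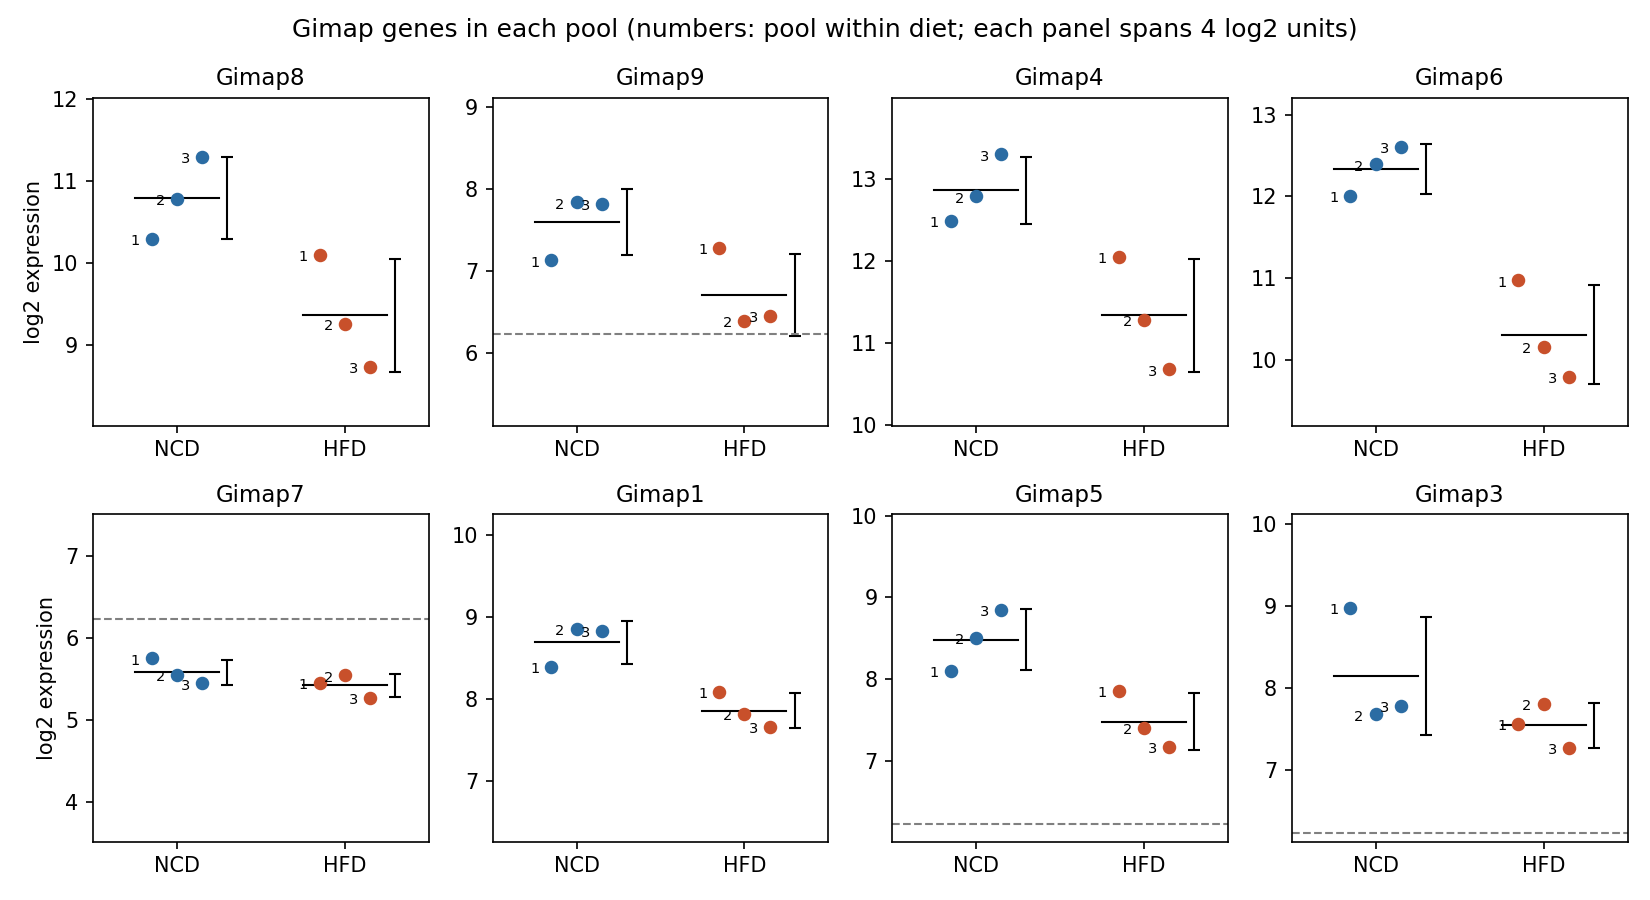
Log2 expression (vertical axis) of each Gimap gene in the 3 NCD pools (blue) and the 3 HFD pools (orange), numbered by pool; horizontal bars are means, error bars 1 SD, dashed lines the background level of 6.23, and every panel spans the same number of log2 units. The diets are farthest apart for Gimap6, they overlap for Gimap3, Gimap7 and Gimap9, and all 6 values of Gimap7 lie under the background line.

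Gimap6, whose protein binds the autophagy adaptor Gabarapl2, had the largest difference of the family. It was at 12.01, 12.39 and 12.60 in NCD1 to NCD3 and at 10.98, 10.16 and 9.80 in HFD1 to HFD3. The highest HFD pool, HFD1, lay 1.04 below the lowest NCD pool, NCD1. The level fell 4.06-fold (−2.02 ± 0.32, adjusted p = 0.0173 by limma). This call was kept without NCD1, without NCD3 and without HFD1, and lost without NCD2 (adjusted p = 0.0766), HFD2 (0.0842) or HFD3 (0.0685), at differences between −2.35 and −1.77.

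Gimap1, a membrane-anchored member required for mature lymphocytes, was at 8.39, 8.85 and 8.83 in NCD1 to NCD3. In HFD1 to HFD3 it was at 8.08, 7.82 and 7.66. The groups did not overlap, although HFD1 was only 0.31 below NCD1. The level fell 1.79-fold (−0.84 ± 0.17, adjusted p = 0.0372 by limma). The call was kept only without NCD1 among the fits that left out 1 pool, with adjusted p-values from 0.0110 to 0.147.

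Upstream sequences of the genes that fell are given with those of Gimap4, the neighbour of Gimap6 in the cluster, and of Gimap3, whose pattern over the pools was different. They are the 250 bases before the RefSeq start of each gene in build GRCm38.p6, 5′ to 3′ on the gene's strand. Capitals mark matches to any of 5 short core motifs, searched on both strands. The core of ETS factors was searched as GGAAGT, and that of RUNX factors, which act in blood cells, as TGTGGT. For KLF factors, the family of Klf2, the letters were CCACCC. The core of FOX factors was written TGTTTA, and the letters taken for GATA factors were AGATAA. Positions count bases before the start. The Gimap6 sequence (chr6:48708245-48708494, minus strand) holds 1 ETS core, 25 bases before the start, and the Gimap1 sequence (chr6:48738797-48739046, plus strand) holds 1 RUNX core at 95. Gimap4 (chr6:48684328-48684577, plus strand) holds a RUNX core at 145 and a KLF core at 79, and Gimap3 (chr6:48770852-48771101, minus strand) a FOX core at 246 and a KLF core at 94.
Gimap6: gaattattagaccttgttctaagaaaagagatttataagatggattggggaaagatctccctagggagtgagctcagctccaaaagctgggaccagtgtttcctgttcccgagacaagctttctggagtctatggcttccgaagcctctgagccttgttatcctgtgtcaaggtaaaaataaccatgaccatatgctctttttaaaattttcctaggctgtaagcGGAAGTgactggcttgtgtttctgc
Gimap1: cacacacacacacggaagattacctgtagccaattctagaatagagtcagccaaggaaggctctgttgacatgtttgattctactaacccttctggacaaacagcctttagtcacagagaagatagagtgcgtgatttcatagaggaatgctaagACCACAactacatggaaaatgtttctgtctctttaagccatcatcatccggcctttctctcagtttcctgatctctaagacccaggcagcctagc
Gimap4: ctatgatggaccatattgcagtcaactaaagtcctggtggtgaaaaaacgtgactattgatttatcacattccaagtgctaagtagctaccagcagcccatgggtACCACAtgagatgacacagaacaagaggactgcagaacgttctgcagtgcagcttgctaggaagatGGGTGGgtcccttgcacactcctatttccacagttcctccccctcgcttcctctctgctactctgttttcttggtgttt
Gimap3: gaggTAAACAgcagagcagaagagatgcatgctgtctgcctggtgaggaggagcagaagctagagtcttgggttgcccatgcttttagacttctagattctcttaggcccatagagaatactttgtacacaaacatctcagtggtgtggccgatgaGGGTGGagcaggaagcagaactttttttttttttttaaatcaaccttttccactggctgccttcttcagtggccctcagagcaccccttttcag

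Over the 9 upstream sequences of the 8 genes (Gimap8 has 2 starts), the ETS core was in 2, those of Gimap6 and Gimap5, the latter with 2 matches. It was in 19.7% of all 32851 upstream sequences of this length. The RUNX core was in 3 of the 9 (14.0% of all), the KLF core in 5 (28.1%), the FOX core in 1 (12.0%) and the GATA core in 0 (9.99%). No matches overlapped. A match describes letters and does not show binding.

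Gimap4, a member linked to the death of T cells, was at 12.50, 12.79 and 13.31 in NCD1 to NCD3 and at 12.05, 11.29 and 10.68 in HFD1 to HFD3. The diets did not overlap, but the HFD pools were spread over 1.37 log2 units. The difference was −1.52 ± 0.37 (2.88-fold), which missed the threshold (adjusted p = 0.0585 by limma) and passed it without NCD1 and without HFD1.

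Gimap8, the largest protein of the family and one with several GTP-binding domains, had a similar profile. It was at 10.29, 10.79 and 11.29 in NCD1 to NCD3 and at 10.10, 9.25 and 8.74 in HFD1 to HFD3. HFD1 came within 0.19 of NCD1, the lowest NCD pool. The difference was −1.43 ± 0.39 (2.69-fold, adjusted p = 0.0809 by limma), and it was called without NCD1 alone.

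Gimap5, a lysosomal protein whose loss shortens T cell survival, was at 8.10, 8.50 and 8.85 in NCD1 to NCD3. In HFD1 to HFD3 it was at 7.86, 7.40 and 7.18. Again HFD1 was the nearest to NCD1, 0.24 below it, with no overlap. The difference was −1.0 ± 0.24 (2.01-fold, adjusted p = 0.0581 by limma). Without NCD1 it was −1.19 and was called.

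Gimap9 was at 7.13, 7.84 and 7.82 in NCD1 to NCD3 and at 7.28, 6.39 and 6.46 in HFD1 to HFD3. Here the diets overlapped, since HFD1 was 0.16 above NCD1. The other HFD pools were close to the background level. The difference was −0.89 ± 0.30 (adjusted p = 0.129 by limma) and was called without NCD1 alone.

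Gimap3, a close relative of Gimap5 that sits on mitochondria in mouse T cells, did not follow the other members. It was at 8.97, 7.67 and 7.78 in NCD1 to NCD3 and at 7.56, 7.81 and 7.26 in HFD1 to HFD3. One pool, NCD1, was more than 1 log2 unit above all others, and the remaining 5 pools overlapped between the diets. The difference was −0.60 ± 0.36 (adjusted p = 0.370 by limma; 95% interval −1.45 to 0.25), and it was −0.18 without NCD1. Whether probes for Gimap3 and Gimap5 also detect the other gene was not tested.

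Gimap7 was below background in all 6 pools, between 5.27 and 5.75. Its difference of −0.16 ± 0.11 (adjusted p = 0.444 by limma; 95% interval −0.43 to 0.10) is therefore a difference between values at background. The other 7 genes had means above background.

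The pools differed within a diet as well as between diets. In 6 genes (Gimap1, Gimap4, Gimap5, Gimap6, Gimap8 and Gimap9) NCD1 was the lowest of the NCD pools and HFD1 the highest of the HFD pools. HFD3 was the lowest of all 6 pools in 7 genes, Gimap9 being the exception. The distance between NCD3 and NCD1 in those 6 genes was 0.44 (Gimap1) to 1.00 (Gimap8), and that between HFD1 and HFD3 was 0.42 (Gimap1) to 1.37 (Gimap4). In Gimap3 and Gimap7 the order was turned within NCD, with NCD1 the highest pool, by 1.20 and 0.30 above NCD3.

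**Figure D2:**
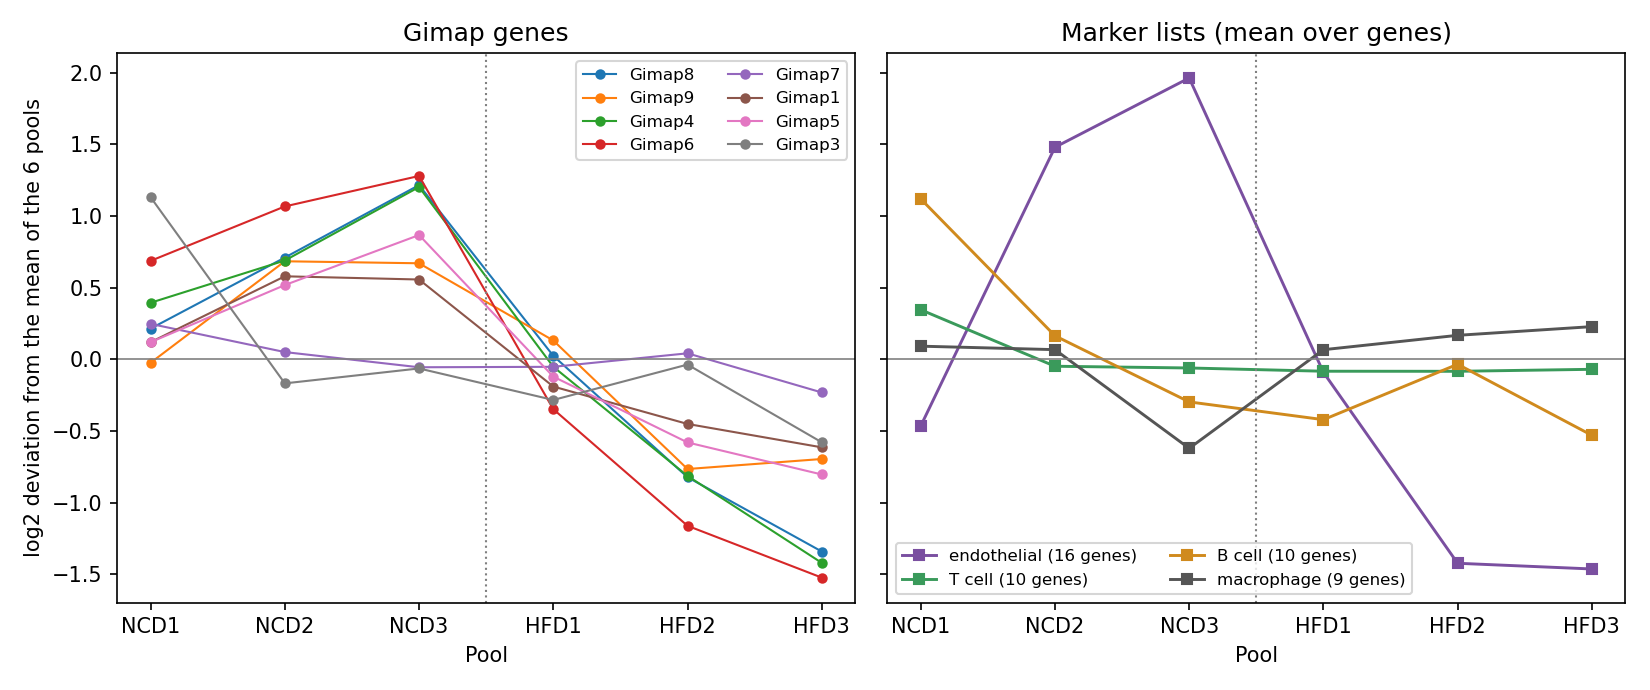
Log2 deviation of each pool from the mean of the 6 pools (vertical axis), for the 8 Gimap genes on the left and for the mean of 4 marker lists on the right; lines only join the points of a gene or list, and the pools have no order within a diet. The endothelial list and 6 Gimap genes have NCD1 lowest within NCD and HFD1 highest within HFD. Gimap3, Gimap7 and the T and B cell lists are highest in NCD1.

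Endothelial markers moved over the pools with the 6 Gimap genes. The mean level of 16 strict markers was 11.52 in NCD1, 13.47 in NCD2 and 13.95 in NCD3, and 11.90, 10.57 and 10.53 in HFD1 to HFD3. All 16 were higher in NCD3 than in NCD1 and in HFD1 than in HFD3. All 16 had a lower mean in HFD, with a median diet difference of −1.91, and 14 had an unadjusted p below 0.05 by limma. After adjustment 1 of 16 was called lower, Sox17, an endothelial transcription factor (−2.20 ± 0.48, adjusted p = 0.0441 by limma), and 0 were called higher. Of all features 2.79% were called lower. The Sox17 call was kept without NCD1 and lost without any other pool. The phosphatase Ptprb was at −2.47 (adjusted p = 0.0636), the lectin Clec14a at −2.12 (0.0777), the matrix protein Mmrn2 at −2.61 (0.0924) and the cadherin Cdh5 at −1.49 (0.179). On the wider list of 24 measured endothelial genes, 1 was called lower, 21 had an unadjusted p below 0.05 by limma, and the median was also −1.91.

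With the mean of the strict endothelial markers as a covariate, 0 of the 8 Gimap genes were called by limma, and 3 had an unadjusted p below 0.05. In this fit 1.9% of all features were called, so calls were lost across the array and the count says little of the family itself; the differences are given instead. The difference of Gimap6 was then −1.29 ± 0.30 (adjusted p = 0.108), that of Gimap1 −0.42 ± 0.14 (0.248) and that of Gimap4 −0.69 ± 0.37 (0.464). Gimap8 was at −0.45, Gimap5 at −0.37 and Gimap9 at −0.10. Gimap3 and Gimap7 went the other way, to −1.37 and −0.31. The covariate itself differed between diets, at a mean deviation of 0.99 in NCD and −0.99 in HFD, and the fit left fewer residual degrees of freedom.

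NCD1 and HFD1 were the pools of the 2 diets nearest in endothelial level, a pair picked after the values were seen and with 1 pool per diet. HFD1 was 0.37 higher than NCD1 in the mean of the strict endothelial list, and 13 of the 16 markers were higher in HFD1. The pair was not matched in lymphoid genes. The B cell list was at −1.54 for HFD1 minus NCD1, with 0 of 10 genes higher in HFD1. The strict T cell list was at −0.43, with 1 of 10 higher. In the same pair 7 of 8 Gimap genes were lower in HFD1. The share over all features was not counted, so this number is not a result about the family. The column median over the transcript clusters was also lower in HFD1 (5.79) than in NCD1 (5.86). Gimap6 was lower by 1.04, with a difference HFD1 minus NCD1 of −1.04, and Gimap3 stood at −1.42. Gimap4 (−0.45), Gimap1 (−0.31), Gimap7 (−0.30), Gimap5 (−0.24) and Gimap8 (−0.19) differed by less, and Gimap9 was at 0.16.

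**Figure D3:**
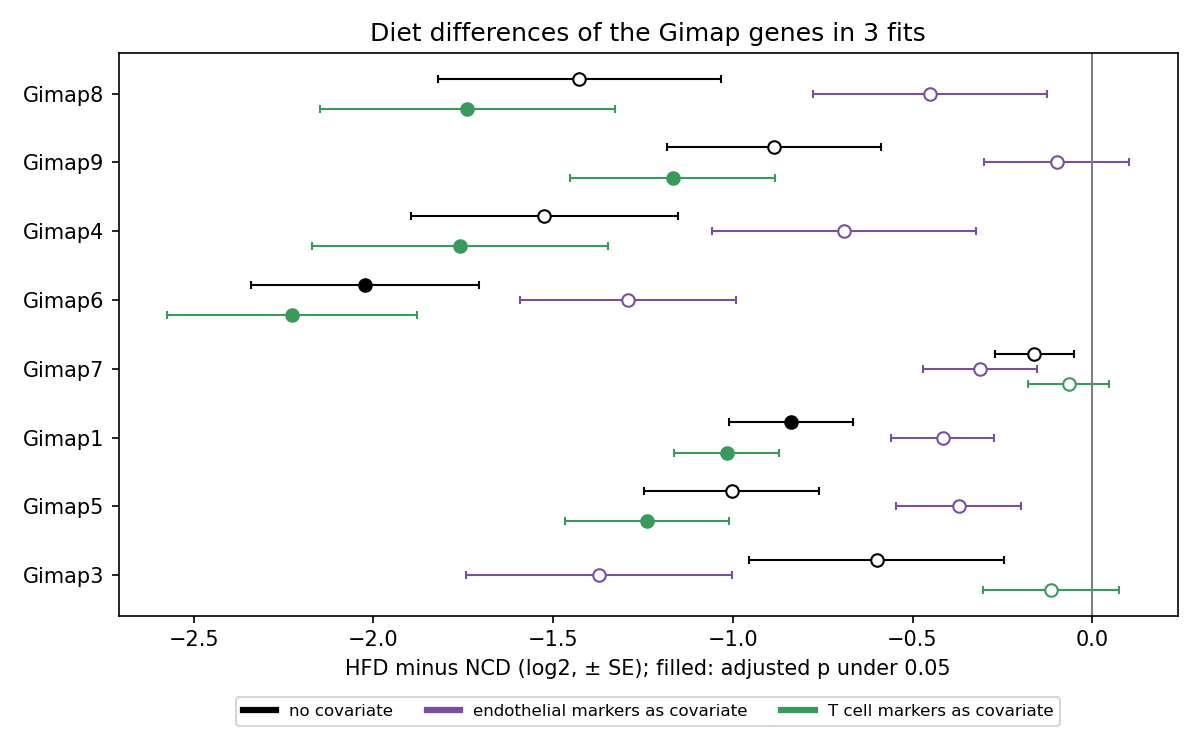
Diet difference (horizontal axis, log2 HFD minus NCD, bars ± SE) of each Gimap gene with no covariate, with the endothelial markers and with the T cell markers as covariate; filled points have an adjusted p below 0.05. With the endothelial covariate 6 genes lie nearer to 0 and Gimap3 and Gimap7 farther from it; with the T cell covariate these 6 genes are called.

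T cell genes, by contrast, were mostly at or below background. Of 10 measured strict markers 8 had a mean below background, and their mean level was 5.61 to 6.02 in NCD pools and 5.59 to 5.61 in HFD pools. The highest pool was NCD1, as in Gimap3, at a deviation of 0.35 against −0.08 to −0.05 in the others. Cd3e, a chain of the T cell receptor complex, was at 6.65 in NCD1, above background, and at 5.60 to 5.91 in the other 5 pools. None of the strict markers was called by limma (0 of 10, 1 at an unadjusted p below 0.05). Among 21 measured genes of the wider T cell list, Cd8b1 was called lower (−0.43, adjusted p = 0.0258 by limma) at levels below background. Il7r, the interleukin-7 receptor, was called higher (2.79 ± 0.36, adjusted p = 0.0111 by limma). It was at 11.33 to 12.75 in NCD pools and 14.46 to 14.88 in HFD pools, far above background, unlike most strict markers. Which cells carried the Il7r RNA was not tested. The Cd8b1 call was kept only without NCD1 among the fits that left out 1 pool, and the Il7r call was lost without HFD2 or HFD3. Cd247, the zeta chain of the same complex, was at −0.69 (adjusted p = 0.0507) and the adhesion molecule Cd2 at −1.40 (0.0808).

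With the T cell markers as covariate, 6 Gimap genes were called lower: Gimap1, Gimap4, Gimap5, Gimap6, Gimap8 and Gimap9. This fit called 15.5% of all features. Their differences were then between −2.23 (Gimap6) and −1.02 (Gimap1), while Gimap3 was at −0.12 and Gimap7 at −0.07. The covariate mainly sets NCD1 apart from the other 5 pools, so this fit is close by construction to the one without NCD1, which called the same 6 genes and is no separate evidence.

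B cell markers were also highest in NCD1, in 9 of 10 measured genes. The mean level of that list was 10.03 in NCD1 and 8.38 to 9.08 elsewhere. The 1 gene called lower was Ebf1 (−2.28 ± 0.45, adjusted p = 0.0335 by limma), a transcription factor that mesenchymal cells express as well. Ebf1 was the gene of the list that was not highest in NCD1. It was at 11.70, 12.59 and 13.12 in NCD1 to NCD3 and at 10.95, 9.99 and 9.65 in HFD1 to HFD3. The Ebf1 call was kept only without NCD1 and without HFD1. Of 11 natural killer and innate lymphoid genes 7 were below background and 0 were called by limma (1 at an unadjusted p below 0.05); Klrk1 was at −0.74 (adjusted p = 0.0851). The part of endothelial and lymphoid RNA in the Gimap differences was not tested beyond these values.

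**Figure D4:**
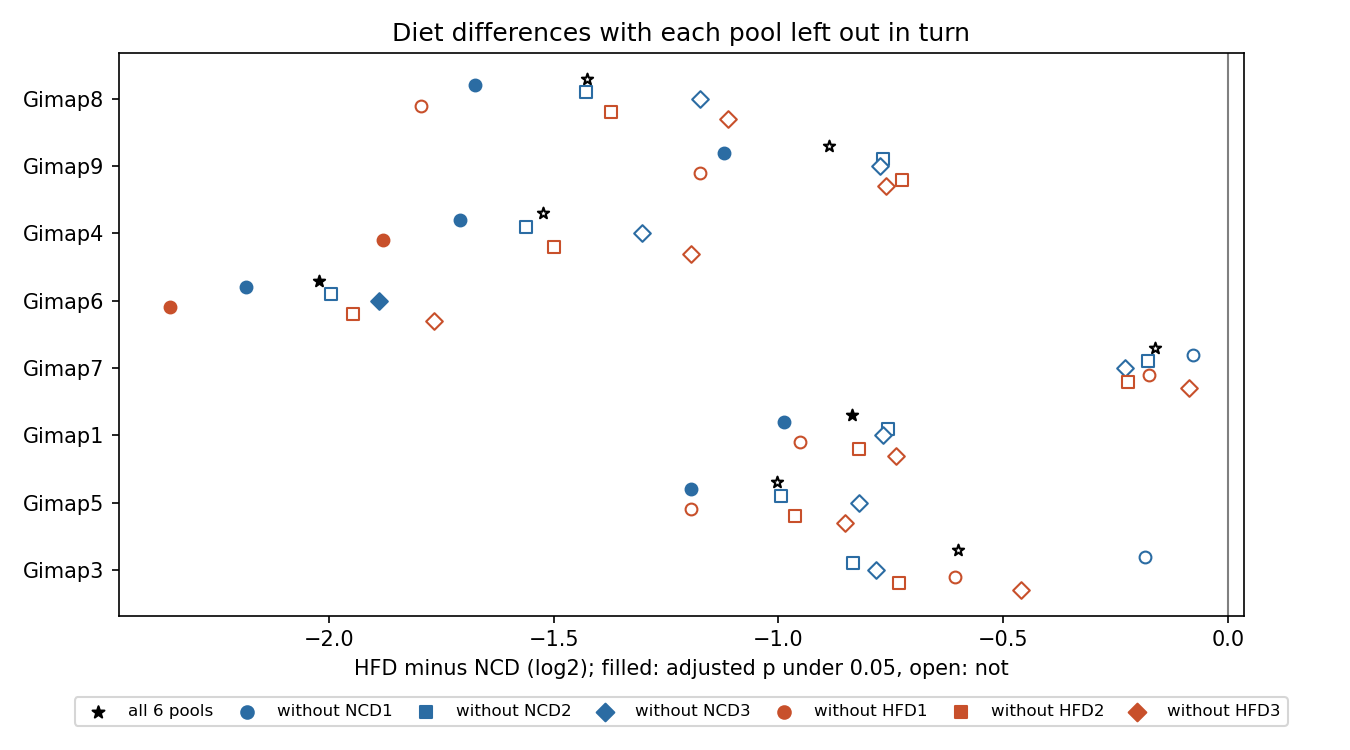
Diet difference (horizontal axis, log2 HFD minus NCD) of each Gimap gene with all 6 pools and with each pool left out in turn; filled symbols have an adjusted p below 0.05. All values are below 0; without NCD1, 6 genes are called, and without NCD2, HFD2 or HFD3, 0 are called.

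The number of Gimap genes called moved with single pools, as did the number over all features. It was 6 without NCD1, where 15.5% of all features were called, 1 (Gimap6) without NCD3 (5.84% of features) and 2 (Gimap4 and Gimap6) without HFD1 (3.34%). It was 0 by limma without NCD2 (1.47% of features called), without HFD2 (1.21%) or without HFD3 (1.34%). Each of these fits had 5 Gimap genes at an unadjusted p below 0.05, a cutoff at which the share of all features was not counted. Calls were thus gained and lost over the whole array in these fits, and a count of 0 of 8 at such shares is not a result about the family. The median over the family stayed between −1.18 and −0.80 in these fits, all of which had fewer residual degrees of freedom.

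The genes next to the cluster were read for comparison. Of the 5 protein-coding genes on each side, 9 were measured, 3 were called lower and 0 higher. Of all features 2.79% were called lower. Directly after Gimap3 lie Tmem176b and Tmem176a, membrane proteins of myeloid and dendritic cells. Tmem176b was at 14.42, 14.64 and 14.47 in NCD1 to NCD3 and at 13.19, 13.30 and 12.67 in HFD1 to HFD3, and it fell 2.74-fold (−1.45 ± 0.18, adjusted p = 0.0102 by limma). Tmem176a fell 3.19-fold (−1.67 ± 0.22, adjusted p = 0.0113). In both the NCD pools lay within 0.3 of one another, a narrower range than in Gimap6 (0.59). On the other side Rarres2, which encodes the chemoattractant chemerin, fell 2.85-fold (−1.51 ± 0.17, adjusted p = 0.00776). The Rarres2 call was kept without each pool in turn, while Tmem176b was not called without NCD2 and Tmem176a not without NCD2 or HFD2. With the endothelial covariate the differences were −1.30 for Tmem176b (adjusted p = 0.0870), −1.33 for Tmem176a (0.0922) and −1.47 for Rarres2 (0.0523). Lrrc61, Gm5111, Repin1, Zfp775, Gm7932 and Doxl1 were not called, with differences between −0.05 and 0.30, and Aoc1 was not analysed here. Of these, Gm5111 (mean 4.36), Gm7932 (4.58) and Doxl1 (4.47) were below background in every pool, so a fall could not be seen in them.

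Among 4151 other genes with a mean above background and a range of at least 1 log2 unit, 6 were taken as nearest to the median profile of the 7 Gimap genes above background. Nearness was the mean absolute difference between the centred log2 profiles over the 6 arrays. They were Sema6d (a semaphorin, 0.073 away), Gm10400 (0.075), Zfyve9 (0.075), Thbd (0.079), Prickle1 (0.079) and Ly6e (0.080). Thbd encodes thrombomodulin, an anticoagulant receptor of endothelium; it was at 11.89, 12.31 and 12.67 in NCD1 to NCD3 and at 11.61, 10.91 and 11.08 in HFD1 to HFD3. By the same measure the closest strict endothelial marker, Cdh5, was at rank 1529 (0.46 away). The profiles were centred but not scaled, so a gene of like pattern and larger range also ranks as distant. The mean deviation of the strict endothelial list ran from 1.96 in NCD3 to −1.46 in HFD3. The median Gimap profile ran from 0.87 to −0.80 in the same pools. Fabp4 of the wider endothelial list was at rank 55 (0.14), and the interferon-inducible GTPase gene Irgm2 at rank 18 (0.11). This likeness rests on 6 arrays and says nothing of shared function.

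Genes of autophagy and of the Bcl2 family were read because products of some of them bind Gimap proteins. Of all features 7.63% were called, so 0 calls in lists of this size are not a result about them. Of 12 autophagy genes 0 were called by limma (4 at an unadjusted p below 0.05), with a median of 0.06. Gabarapl2, the adaptor bound by Gimap6, was at −0.08 ± 0.19 (adjusted p = 0.851), and the smallest adjusted p was that of Atg7, the enzyme that activates adaptor conjugation (0.52, adjusted p = 0.113). Of 12 measured Bcl2 family genes, regulators of cell death that bind Gimap proteins in T cells, 0 were called by limma (2 at an unadjusted p below 0.05). Their median was −0.01; the effector Bak1 was at 0.40 (adjusted p = 0.0616) and Bcl2 itself at −0.08.

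In a list of 9 measured genes tied to Gimap5-dependent survival of lymphocytes, 1 fell and 0 rose, with a median of −0.07. The gene that fell was Klf2, a transcription factor of quiescent T cells and of endothelium. It was at 13.83, 14.02 and 14.05 in NCD1 to NCD3 and at 12.34, 12.41 and 11.76 in HFD1 to HFD3, a 3.48-fold fall (−1.80 ± 0.19, adjusted p = 0.00725 by limma). The call was kept without each pool in turn, and with the endothelial covariate Klf2 was at −1.56 (adjusted p = 0.0508). Foxo3 of the same list went the other way, at 0.56 ± 0.13 (adjusted p = 0.0545 by limma). Foxo1, a transcription factor of the same quiescence programme, was at −1.69 ± 0.41 (adjusted p = 0.0599 by limma). Its levels were 9.94, 10.85 and 11.66 in NCD1 to NCD3 and 9.40, 9.09 and 8.91 in HFD1 to HFD3. The sphingosine phosphate receptor S1pr1 was at −1.78 ± 0.50 (0.0848). In both genes NCD1 was the lowest NCD pool and HFD1 the highest HFD pool, as in the strict endothelial list. Which cells carried the RNA of these genes was not tested. Gsk3b, the kinase restrained in T cells with intact Gimap5, was at 0.09 ± 0.10 (adjusted p = 0.644).

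Another family of immune GTPases is the interferon-inducible IRG proteins, which attack the vacuoles of intracellular pathogens. Of 6 measured genes 3 were called lower and 0 higher, against 2.79% of all features called lower, and the median was −1.30. Iigp1 fell 4.81-fold (−2.27 ± 0.38, adjusted p = 0.0207 by limma), Igtp 2.91-fold (−1.54 ± 0.29, 0.0295) and Gm4951 2.69-fold (−1.43 ± 0.22, 0.0167). Irgm2 was at −1.17 ± 0.27 (adjusted p = 0.0504). Leaving out NCD2, HFD2 or HFD3 ended the calls of Iigp1 and Gm4951, and Igtp was called only without NCD1; with the endothelial covariate Iigp1 was at −1.39, Gm4951 at −1.14 and Igtp at −0.83, none called. In 5 of the 6 measured IRG genes every NCD pool was above every HFD pool, as in 5 of the 8 Gimap genes and 12.8% of all features.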

How the data were processed

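Total RNA (100 ng per pool) was labelled for 1 Affymetrix array per pool. The authors deposited log2 expression values for transcript clusters; per the submitters' processing notes they used RMA, Transcriptome Analysis Console 3.1.0.5 and Affymetrix Expression Console 1.4.1.46, and which program did which step, the options and the genome build are not given in the sources used here. Of 65956 clusters, 32750 carried a gene symbol; after symbols were updated by Entrez identifier and 1 row kept per symbol entry (the highest mean), 32019 features remained. Control probe sets (6732) were left out, dim features were kept, and arrays were not normalized again. The background level is the mean over arrays of the 95th percentile of the antigenomic probe sets.

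HFD and NCD pools were compared by a limma 3.58.1 fit (lmFit, eBayes with a mean-variance trend) in R 4.3.3; p-values are two-sided and adjusted over all 32019 features. The titles call the pools biological replicates and state no pairing. Arrays have no read depth, and their number limits the precision; the median SE was 0.118. Alternatives covered normalization, filters, features, weights, the replicate block, covariates and single pools. The members and lists were chosen with earlier results of these data known. Named genes were all members, the 6 nearest in profile, the cluster's neighbours and up to 4 genes per list by adjusted p; Gabarapl2, Bcl2, Gsk3b, Cdh5 and Cd3e were added for their roles. The strict endothelial markers were Cdh5, Tie1, Tek, Kdr, Flt1, Emcn, Esam, Cldn5, Robo4, Sox17, Sox18, Ptprb, Mmrn2, Ecscr, Clec14a and Gpihbp1; the strict T cell markers were Cd3e, Cd3d, Cd3g, Cd5, Cd6, Lat, Zap70, Bcl11b, Trat1 and Ubash3a. Genes of a list found only in rows with several symbols, or in no row, were not analysed here. Upstream sequences are from RefSeq (GRCm38.p6), with all 8 genes matched. Figures were made in Python 3.11.15 (pandas 2.3.3, matplotlib 3.10.9).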

Additional observations from a re-analysis of the deposited data

How the results depend on the processing

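The differences of all 8 Gimap genes stayed below 0 under every alternative that gave a value. With all 6 pools 2 genes were called; the number was also 2 with median centring, a further quantile normalization, no variance trend and single-symbol rows only. It was 4 with array weights (14.1% of all features called, against 7.63%), 4 with features below background dropped (17.9%) and 4 with the lowest 25% of features dropped (11.9%), and it was 1 with all 65956 transcript clusters in the fit (3.45%). It was 6 with the T cell covariate and 0 with the endothelial covariate, and it ranged from 0 to 6 over fits without 1 pool. With the replicate number as a block 0 were called, as were 0.353% of all features (5 Gimap genes at an unadjusted p below 0.05; Gimap6 adjusted p = 0.0917). The numbers were not shown to pair the pools: same-numbered deviations correlated at −0.46, −0.12 and −0.15, and no pool correlated best with its own number. The planned use of a second row per gene was not run, since each gene had 1 row. The cause of these changes was not tested. Depth does not apply to arrays; Gimap7 was under background in all pools and Gimap9 near it in HFD2 and HFD3.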
